A study of Homo sapiens with 12 samples.

Results

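The core autophagy machinery was read as 54 genes, taken by name from a list of initiation, conjugation, receptor and fusion genes and joined between the deposited count tables of the cell lines by Ensembl identifier without its version. All 54 were found among the 30358 genes that both tables list. The study treated cells with PTDSS1i, the small-molecule inhibitor DS55980254 of PTDSS1, an enzyme that makes phosphatidylserine, and compared their poly-A RNA with that of cells given DMSO, the vehicle. The groups were KYSE30 with DMSO, KYSE30 with 100 nM PTDSS1i, U138MG with DMSO and U138MG with 100 nM PTDSS1i, each for 48 h and each with 3 libraries, 12 in all. KYSE30 is an esophageal squamous cell carcinoma line, and U138MG is labelled glioblastoma. Both are labelled WT, and each is 1 established line. The labels put KYSE30 in batch1 and U138MG in batch2, so batch and line cannot be told apart. The labels number the libraries as replicates without saying that they came from separate cultures, so the p-values measure the spread between these libraries, which may be technical.

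Macroautophagy encloses cytoplasm in a double membrane and delivers it to lysosomes. The ULK kinase complex starts the process, a class III phosphatidylinositol 3-kinase complex marks the membrane, and lipid transfer proteins feed its growth. A pair of ubiquitin-like conjugation reactions then attaches LC3 and GABARAP proteins to phosphatidylethanolamine, receptors tie cargo to them, and SNARE proteins and tethers fuse the closed autophagosome with the lysosome. The pathway is known as a response to starvation and to stress of the endoplasmic reticulum, and much of its control acts on proteins, which mRNA counts do not show.

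Library totals lay between 18800932 and 26514658 counts, and 3 counts correspond to at most 0.160 CPM, the count scaled to a fixed library total. The markers did not bear out the U138MG label, and they were split within lists. Of the 6 glial markers, *S100B* and *OLIG2* were at 0 in every one of these libraries, *GFAP* lay between 0.905 and 2.51 CPM, and *SOX2* had 38.9 ± 1.89 CPM with DMSO (SD, n = 3). *PTPRZ1* and *NES* had 4.49 ± 0.394 and 0.556 ± 0.127 CPM with DMSO, and 3.68 ± 0.264 and 2.05 ± 0.613 with PTDSS1i. Of the 4 mesenchymal markers, *VIM* lay at or under 0.482 CPM, while *SPARC*, *FN1* and *COL1A1* had 713 ± 13.1, 75.8 ± 4.21 and 54.5 ± 1.41 CPM with DMSO. Of the 7 squamous epithelial markers, *KRT5*, *KRT15*, *TP63*, *CDH1* and *EPCAM* had 1469.5 ± 83.4, 4861 ± 329.7, 276 ± 7.36, 463 ± 2.14 and 248 ± 8.52 CPM, and *KRT14* and *KRT6A* had 0.198 ± 0.147 and 0.488 ± 0.111 CPM. The labels give the medium of KYSE30 for every sample, whereas the methods of the study name DMEM for U138MG. The squamous markers summed to between 6870 and 7668 CPM with DMSO and between 1718 and 1838 with PTDSS1i, and the glial markers to between 44.8 and 48.4 and between 10.6 and 12.0. These libraries are therefore called the U138MG-labelled libraries throughout. In KYSE30 the squamous markers *TP63*, *CDH1* and *EPCAM* were present, *KRT5* lay at or under 0.133 CPM, and the squamous sum was 902 to 971 CPM with DMSO and 1147 to 1179 with PTDSS1i. The glial sum in KYSE30 was 106 to 109 CPM with DMSO and 93.6 to 98.0 with PTDSS1i. Most of it was *SOX2*, at 99.4 ± 3.27 CPM with DMSO, beside 7.98 ± 2.22 for *PTPRZ1*, 0.336 ± 0.0993 for *NES* and 0 for *GFAP*. *S100B* and *OLIG2* were not listed for KYSE30. The mesenchymal markers summed to 92.3 to 142 and 79.2 to 83.5 CPM in KYSE30 and to 830.1 to 860 and 437 to 453 in the U138MG-labelled libraries, and the 4 leukocyte and endothelial markers to 16.8 to 19.6 and 40.5 to 47.6 CPM in KYSE30 and to 9.15 to 13.1 and 25.1 to 29.2, of which *CDH5* was the larger share. The part of these shifts in the values below was not tested.

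PTDSS1i moved most of the machinery upward in KYSE30 and a smaller share of it in the U138MG-labelled libraries. Higher and lower here mean an adjusted p (Benjamini-Hochberg, over the whole table) under 0.05 in edgeR's quasi-likelihood test. In KYSE30, 38 of the 54 genes were higher and 6 lower, beside 30.1% and 32.0% of the 16389 genes tested, and their median log2 fold change (PTDSS1i over DMSO) was 0.44 beside -0.03 over all genes. Across the U138MG-labelled libraries, 25 of 53 tested were higher and 8 lower, beside 33.9% and 33.6% of 17666, with a median of 0.09 beside -0.03. In either direction 62.0% and 67.5% of all genes were called. With counts scaled by library size alone, which moved the median of all genes to -0.13 and -0.17, the split was 36 higher and 8 lower in KYSE30 but 22 higher and 18 lower in the U138MG-labelled libraries, so the share of calls that were higher there went from 75.8% to 55.0%. Of all genes, 10392 of 16389 and 12227 of 17666 were then called. Their split by direction was not taken, so counts under library-size scaling, here and below, have no share of all genes beside them. *ULK1*, *ULK2*, *PIK3C3*, *ATG14*, *ATG4C*, *ATG7*, *NBR1*, *CALCOCO2*, *FUNDC1* and *STX17* in the U138MG-labelled libraries, and *ATG10* and *TEX264* in KYSE30, were called lower under that scaling and not under the TMM scaling used elsewhere. The members' median stood 0.46 above that of all genes in KYSE30 and 0.11 above it in the U138MG-labelled libraries. A change of scaling shifts all genes nearly alike, so these gaps are the same under either scaling and are no check of it. The gap in the U138MG-labelled libraries became 0.22 with no filter beyond 1 count in any library, where all 54 members entered. It became 0.08 with at least 10 counts in every library, and 0.10 with both lines fitted together. In bulk RNA, a change in the mix of cells and a change in RNA per cell cannot be told apart.

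Few changes were large. A log2 fold change of at least 1 was reached upward by 5 members in KYSE30 (*ZFYVE1*, *OPTN*, *BNIP3*, *BNIP3L* and *PINK1*), where 6.40% of all genes were called at that size, and downward by none, beside 7.04%. With the U138MG label it was reached upward by *ATG101*, *CCPG1* and *PLEKHM1*, beside 8.19% of all genes, and downward by *RETREG1*, beside 11.6%. Values with PTDSS1i all lay on 1 side of those with DMSO for 46 members in KYSE30, where this held for 66.3% of all genes, and for 37 in the U138MG-labelled libraries, where it held for 71.4%. Counts behind a tested member ranged from 55 to 6745 per library in KYSE30 and from 111 to 9965 in the U138MG-labelled libraries. *MAP1LC3A*, an LC3 protein, was not tested in the latter, with 1 count in 1 of the 6 libraries and 0 in the others, which allows up to 0.157 CPM in the smallest library by a limit of 3 counts. In KYSE30 it rose by 0.80 (SE 0.15, edgeR adjusted p = 9.53e-05) on the log2 scale. The plot of log2 fold changes by step shows every member in both sets of libraries.

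**Figure D1:**
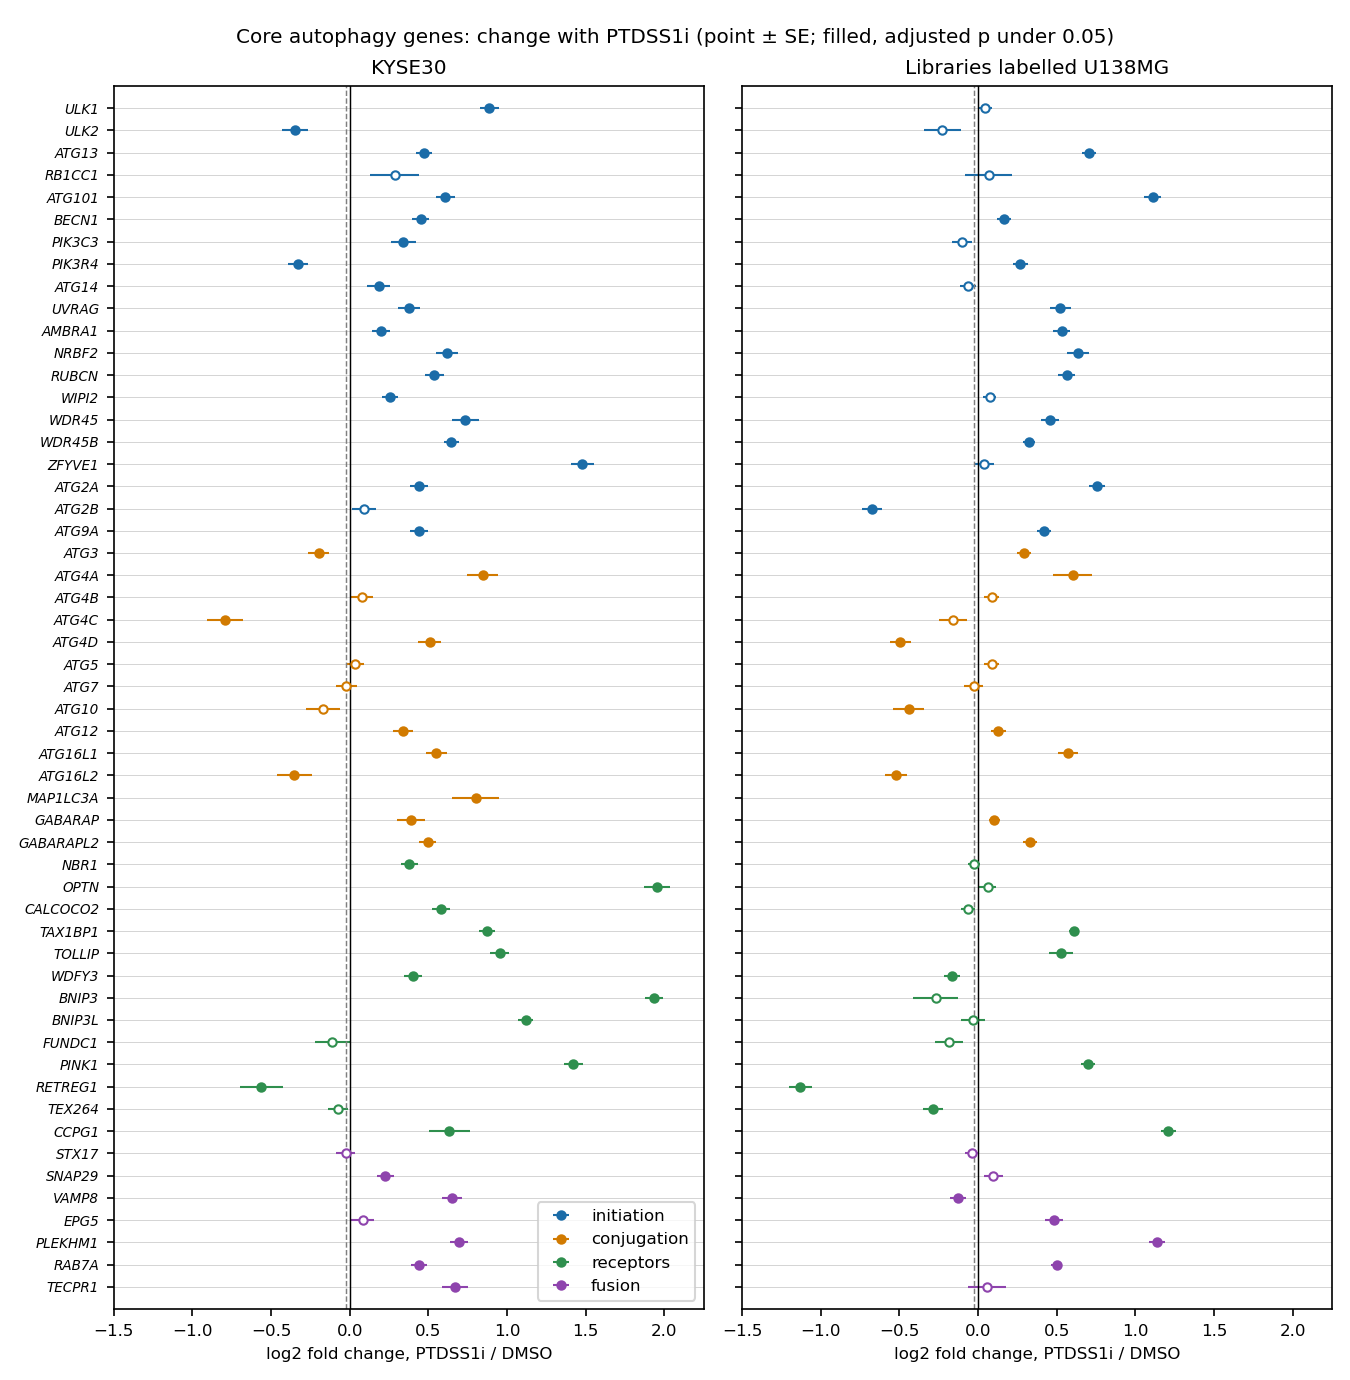
Each row is 1 of the 54 genes, coloured by step, and the x axis is its log2 fold change with PTDSS1i over DMSO, with bars of 1 SE, in KYSE30 (left) and in the U138MG-labelled libraries (right). Filled points have an edgeR adjusted p under 0.05, the dashed line is the median of all genes tested (-0.03 in each), and *MAP1LC3A* has no point on the right because it was not tested there. The 5 points past 1 on the left are *ZFYVE1*, *OPTN*, *BNIP3*, *BNIP3L* and *PINK1*, and on the right the point past -1 is *RETREG1*.

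Of the 20 initiation genes, 16 were higher and 2 lower in KYSE30 (median 0.44). In the U138MG-labelled libraries 12 of them were higher and 1 lower (median 0.30). For each step, the shares of all genes to set beside these are 30.1% higher and 32.0% lower in KYSE30. They are 33.9% and 33.6% in the U138MG-labelled libraries. Among the 14 conjugation genes, 7 were higher and 3 lower in KYSE30 (median 0.21), and 6 of 13 tested were higher and 3 lower in the U138MG-labelled libraries (median 0.09). Of the 13 receptor genes, 10 were higher and 1 lower in KYSE30 (median 0.63), against 4 higher and 3 lower in the U138MG-labelled libraries (median -0.03). The receptors higher in the latter were 30.8%, near the share of all genes. The 7 fusion genes had 5 higher and 0 lower in KYSE30 (median 0.44), and 3 higher and 1 lower in the U138MG-labelled libraries (median 0.10). The highest of these medians in KYSE30, that of the receptors, belongs to the step with the lowest median in the U138MG-labelled libraries. With library-size scaling, 14 of 20 initiation genes were higher in KYSE30, and in the U138MG-labelled libraries 5 initiation, 5 conjugation, 6 receptor and 2 fusion genes were lower. Shares of all genes by direction were not taken under that scaling.

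**Figure D2:**
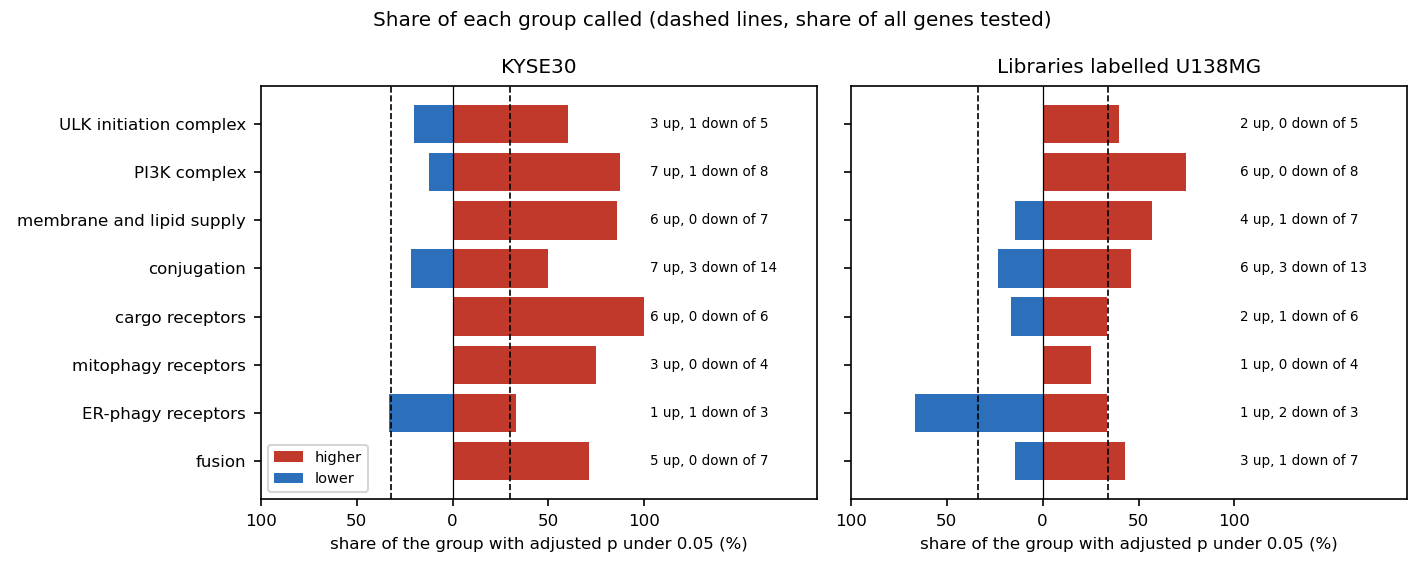
Bars give the share of each functional group called higher (red, to the right) or lower (blue, to the left) at an edgeR adjusted p under 0.05, in percent of the genes tested, with the counts beside them, in KYSE30 (left) and the U138MG-labelled libraries (right). Dashed lines are the shares of all genes tested, 30.1% higher and 32.0% lower on the left and 33.9% and 33.6% on the right. All 6 cargo receptors were higher on the left and 2 of 6 on the right, and the groups hold between 3 and 14 genes each.

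In the ULK complex, the shared rise was in the adaptor subunits *ATG13* and *ATG101*. *ATG101* (chr12:52069246-52077494, GENCODE v29 on GRCh38), which steadies *ATG13* in the complex, stood at 27.6, 29.6 and 30.4 CPM with DMSO and at 65.2, 61.1 and 62.7 CPM with PTDSS1i in the U138MG-labelled libraries. The groups lie far apart, and the log2 fold change was 1.11 (SE 0.05, edgeR adjusted p = 9.64e-17). In KYSE30 the same gene went from 44.4, 40.1 and 40.8 CPM to 65.5, 62.3 and 63.2 CPM, a log2 fold change of 0.61 (SE 0.06, edgeR adjusted p = 1.16e-08), so the rise was larger in the U138MG-labelled libraries, by 0.46 (SE 0.08, edgeR adjusted p = 1.52e-05). Of the exonic bases of *ATG101*, 19.2% also belong to another gene, and the library kit does not mark strand. At least 10% were shared for 10 members, among them *ATG7* (18.1%), *BECN1* (17.1%), *WDR45* (13.9%) and *SNAP29* (12.1%). *ATG13* rose by 0.47 in KYSE30 and by 0.71 in the U138MG-labelled libraries.

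The kinases themselves did not move alike. *ULK1* rose from 94.5 ± 8.19 to 175 ± 3.87 CPM in KYSE30 (SD, n = 3), with a log2 fold change of 0.89 (SE 0.06, edgeR adjusted p = 1.63e-11), and had 0.05 (edgeR adjusted p = 0.364) in the U138MG-labelled libraries, which turned to a called -0.10 (edgeR adjusted p = 0.0496) with library-size scaling. Its paralog *ULK2* stood at 17.4, 19.1 and 17.1 CPM with DMSO and at 13.9, 13.4 and 14.7 CPM with PTDSS1i in KYSE30, a log2 fold change of -0.35 (SE 0.08, edgeR adjusted p = 0.00108), and at 9.69, 7.99 and 8.08 CPM and 7.41, 7.14 and 7.39 CPM in the U138MG-labelled libraries, where it had -0.23 (edgeR adjusted p = 0.0926), or -0.37 (edgeR adjusted p = 0.00685) with library-size scaling. The DMSO and PTDSS1i values of *ULK2* do not overlap in either set. The scaffold *RB1CC1* (FIP200) was not called in either, at 0.29 (edgeR adjusted p = 0.174) and 0.07 (edgeR adjusted p = 0.715). Its KYSE30 values were 66.5, 80.2 and 82.4 CPM with DMSO and 80.7, 112 and 87.2 CPM with PTDSS1i, so PTDSS1i replicate 2 lay above the rest, and in the U138MG-labelled libraries PTDSS1i replicate 3 was the lowest at 82.1 CPM.

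Promoter sequence of members was searched on both strands for 3 motifs that are known for stress and autophagy genes, over the 250 bases before and 50 after each start in the RefSeq promoter table (GRCh38.p14). These were TGATGNAA, the composite element that ATF4 binds with a C/EBP partner, CACGTG, the E-box core that TFEB and other basic helix-loop-helix factors bind, and TGTTTAC, the forkhead core. The table held 55 windows for 44 of the 54 members. CACGTG was in 5 of these windows beside 7.26% of all 35116, TGTTTAC in 2 beside 3.42%, and TGATGNAA in 1 beside 3.62%. The E-box windows were those of *ATG3*, *NRBF2*, *BNIP3*, *ATG14* and *SNAP29*, and the forkhead windows those of *CALCOCO2* and *WDR45*. A match is a description of the letters and no evidence of binding. Stretches of 280 bases, 250 before and 30 after the start, are shown with matches in capitals for *OPTN*, *BNIP3* and *RETREG1*, which rose or fell most, for *NRBF2*, which rose in both, and for *WDR45*, the member with TGATGNAA.

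The class III phosphatidylinositol 3-kinase complex makes the phosphatidylinositol 3-phosphate that marks the forming membrane. In KYSE30, 7 of the 8 genes listed with it, the inhibitor *RUBCN* among them, were higher and 1 lower (median 0.36). In the U138MG-labelled libraries 6 were higher and 0 lower (median 0.40). Those higher among all genes were 30.1% and 33.9%. *NRBF2*, which binds *ATG14* in the complex, was among the 5 members with the largest change shared by both lines. It stood at 21.8, 22.3 and 23.9 CPM with DMSO and 36.0, 32.2 and 36.3 CPM with PTDSS1i in KYSE30, and at 19.8, 20.1 and 20.5 CPM and 30.3, 31.1 and 32.5 CPM in the U138MG-labelled libraries. Neither pair of groups overlaps, the log2 fold changes were 0.62 (SE 0.07, edgeR adjusted p = 1.46e-07) and 0.64 (SE 0.07, edgeR adjusted p = 2.63e-09), and their difference was -0.02 (SE 0.10, edgeR adjusted p = 0.907). Its near copy *NRBF2P6* held 72 counts beside 3734 for *NRBF2* in KYSE30 and 117 beside 3507 in the U138MG-labelled libraries. The *NRBF2* window (chr10:63133078-63133357, plus strand) has CACGTG beginning 246 bases before the start.
NRBF2 promoter: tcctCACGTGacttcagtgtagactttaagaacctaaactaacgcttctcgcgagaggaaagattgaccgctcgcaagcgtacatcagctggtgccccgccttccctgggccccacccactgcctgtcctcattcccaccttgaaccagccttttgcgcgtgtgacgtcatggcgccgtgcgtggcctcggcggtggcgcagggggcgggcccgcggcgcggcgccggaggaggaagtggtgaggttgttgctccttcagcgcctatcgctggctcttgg

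*PIK3R4*, the VPS15 regulatory subunit, moved in opposite directions. In KYSE30 it stood at 44.0, 39.2 and 43.1 CPM with DMSO and at 34.4, 33.1 and 33.2 CPM with PTDSS1i, a log2 fold change of -0.33 (SE 0.06, edgeR adjusted p = 0.000138). In the U138MG-labelled libraries it stood at 45.1, 46.4 and 49.0 CPM and at 56.5, 56.5 and 56.5 CPM, a log2 fold change of 0.27 (SE 0.05, edgeR adjusted p = 2.36e-05). The groups did not overlap in either, and the responses differed by 0.56 (SE 0.08, edgeR adjusted p = 8.94e-07). *PIK3C3*, the catalytic subunit VPS34, rose in KYSE30 by 0.34 and had -0.10 (edgeR adjusted p = 0.160) in the U138MG-labelled libraries, or -0.25 (edgeR adjusted p = 0.00105) with library-size scaling, and the responses differed by -0.48 (SE 0.10, edgeR adjusted p = 0.000154).

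The other genes listed with the complex, both subunits and regulators, rose in KYSE30, and all but *ATG14* in the U138MG-labelled libraries. *BECN1*, the beclin scaffold, rose by 0.45 in KYSE30 and by 0.17 in the U138MG-labelled libraries, the latter falling to 0.02 and losing its call with library-size scaling. *UVRAG*, which replaces *ATG14* in the endosomal form of the complex, rose by 0.38 and 0.52, and *RUBCN* (Rubicon), an inhibitor of that form, by 0.54 and 0.56. *AMBRA1*, a beclin regulator, rose by 0.20 and 0.53, and *ATG14*, which directs the complex to the autophagosome, by 0.18 in KYSE30 with -0.06 (edgeR adjusted p = 0.276) in the U138MG-labelled libraries. The KYSE30 calls of *AMBRA1* and *ATG14* were lost with library-size scaling, at 0.10 and 0.08, and in the U138MG-labelled libraries *ATG14* was then lower, at -0.21 (edgeR adjusted p = 0.000687).

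Among genes that bring membrane and lipid to the growing autophagosome, 6 of 7 were higher in KYSE30 (median 0.44), beside 30.1% of all genes. In the U138MG-labelled libraries 4 were higher and 1 lower (median 0.32), beside 33.9% and 33.6% of all genes. *ZFYVE1* (chr14:72969451-73027212) encodes DFCP1, which marks the site on the endoplasmic reticulum where autophagosomes form. It stood at 19.1, 22.7 and 18.5 CPM with DMSO and at 57.0, 54.6 and 55.8 CPM with PTDSS1i in KYSE30, a 2.79-fold rise with no overlap and a log2 fold change of 1.48 (SE 0.07, edgeR adjusted p = 1.31e-13). Across the U138MG-labelled libraries it stood at 28.5, 28.7 and 30.1 CPM and at 29.4, 28.8 and 31.3 CPM, groups that overlap, with a log2 fold change of 0.04 (edgeR adjusted p = 0.615) that became -0.11 with library-size scaling. The responses differed by -1.48 (SE 0.10, edgeR adjusted p = 3.52e-14).

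The paralogs of the ATG2 lipid transfer protein parted in the U138MG-labelled libraries. *ATG2A* rose there from 38.2 ± 1.62 to 64.4 ± 0.630 CPM (SD, n = 3), with a log2 fold change of 0.75 (SE 0.05, edgeR adjusted p = 1.00e-13), while *ATG2B* stood at 42.3, 42.8 and 43.7 CPM with DMSO and at 24.5, 28.9 and 27.5 CPM with PTDSS1i, a fall with no overlap and a log2 fold change of -0.67 (SE 0.06, edgeR adjusted p = 1.83e-10). In KYSE30 *ATG2A* rose by 0.44 and *ATG2B* had 0.09 (edgeR adjusted p = 0.302), which became -0.01 with library-size scaling. The *ATG2B* response differed between the lines by -0.80 (SE 0.10, edgeR adjusted p = 3.23e-08). *ATG9A*, the scramblase that travels on vesicles to the site, rose by 0.44 and 0.42, with 38.8% of its exonic bases shared with another gene.

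The phosphoinositide-binding WIPI proteins read the mark of the kinase complex. *WDR45* (WIPI4) and *WDR45B* (WIPI3) rose by 0.73 and 0.65 in KYSE30 and by 0.45 and 0.32 in the U138MG-labelled libraries. *WIPI2* rose by 0.26 in KYSE30 and had 0.07 (edgeR adjusted p = 0.123) in the others. *WDR45* was the only member among the 44 with a window that held TGATGNAA. It has 2 windows in the table, and in the one with the match (chrX:49079858-49080137, minus strand) the element begins 6 bases before the start, overlapping a reverse-strand match to TGTTTAC that begins 2 bases before it.
WDR45 promoter: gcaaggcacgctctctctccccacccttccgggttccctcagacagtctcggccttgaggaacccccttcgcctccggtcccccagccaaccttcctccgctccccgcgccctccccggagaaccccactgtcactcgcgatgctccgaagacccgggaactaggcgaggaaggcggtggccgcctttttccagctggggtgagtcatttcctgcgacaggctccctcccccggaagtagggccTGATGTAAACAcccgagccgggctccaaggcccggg

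Conjugation genes were mixed, and several of its best known enzymes were not called. *ATG7*, the activating enzyme, had -0.02 (edgeR adjusted p = 0.791) in KYSE30 and -0.03 (edgeR adjusted p = 0.711) in the U138MG-labelled libraries, *ATG5*, the partner of *ATG12*, 0.03 (edgeR adjusted p = 0.632) and 0.09 (edgeR adjusted p = 0.113), and the protease *ATG4B* 0.07 (edgeR adjusted p = 0.367) and 0.09 (edgeR adjusted p = 0.0995). With library-size scaling *ATG7* was lower in the U138MG-labelled libraries, at -0.17 (edgeR adjusted p = 0.0129). *ATG16L1*, which brings the *ATG12*-*ATG5* conjugate to the membrane, rose by 0.55 and 0.57. *ATG12* rose by 0.34 in KYSE30 and by 0.13 in the U138MG-labelled libraries, the latter turning to -0.02 with library-size scaling.

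The ATG4 proteases, which trim LC3 and GABARAP proteins and release them from lipid, went separate ways. *ATG4A* stood at 7.33, 7.97 and 8.04 CPM with DMSO and 13.4, 13.5 and 15.03 CPM with PTDSS1i in KYSE30 and at 5.54, 5.94 and 5.77 CPM and 8.82, 7.83 and 9.54 CPM in the U138MG-labelled libraries. It rose without overlap in both, by 0.85 (SE 0.10, edgeR adjusted p = 1.81e-07) and 0.60 (SE 0.12, edgeR adjusted p = 0.000111). *ATG4C* stood at 9.92, 11.8 and 10.6 CPM with DMSO and 6.15, 7.03 and 5.53 CPM with PTDSS1i in KYSE30, a log2 fold change of -0.79 (SE 0.12, edgeR adjusted p = 4.26e-06), which was the largest fall of a member there.

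With the U138MG label *ATG4C* had -0.16 (edgeR adjusted p = 0.105), with values of 20.8, 19.4 and 19.4 CPM and 15.7, 20.3 and 17.3 CPM. PTDSS1i replicate 2 lay among the DMSO values, and without it the log2 fold change was -0.25 (edgeR adjusted p = 0.0187). With library-size scaling it was -0.31 (edgeR adjusted p = 0.00284). *ATG4D* stood at 31.5, 27.3 and 27.6 CPM with DMSO and 44.7, 38.9 and 39.2 CPM with PTDSS1i in KYSE30 but at 31.5, 32.0 and 32.0 CPM and 23.6, 21.4 and 22.8 CPM in the U138MG-labelled libraries. Its groups did not overlap in either, its log2 fold changes were 0.51 (SE 0.07, edgeR adjusted p = 3.45e-06) and -0.49 (SE 0.07, edgeR adjusted p = 1.94e-07), and the difference of -1.04 (SE 0.10, edgeR adjusted p = 2.59e-10) was the largest among the 5 members called in opposite directions. Of its exonic bases, 14.97% are shared with *KRI1*.

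*ATG3*, the conjugating enzyme for LC3 proteins, stood at 42.7, 36.9 and 42.5 CPM with DMSO and 36.3, 34.0 and 36.2 CPM with PTDSS1i in KYSE30, a log2 fold change of -0.20 (SE 0.07, edgeR adjusted p = 0.0152). That call was lost in DESeq2 (-0.18, adjusted p = 0.0593) and without DMSO replicate 1 or 3 or PTDSS1i replicate 2, at -0.16, -0.17 and -0.17. In the U138MG-labelled libraries *ATG3* stood at 68.0, 63.1 and 64.7 CPM and 78.3, 79.3 and 82.4 CPM, a rise without overlap of 0.30 (SE 0.04, edgeR adjusted p = 1.32e-06). The responses differed by 0.45 (SE 0.08, edgeR adjusted p = 2.70e-05). *ATG10*, the conjugating enzyme for *ATG12*, had -0.17 (edgeR adjusted p = 0.187) in KYSE30, or -0.28 (edgeR adjusted p = 0.0444) with library-size scaling, and fell in the U138MG-labelled libraries by 0.44 on the log2 scale.

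*ATG16L2*, a paralog of *ATG16L1*, was lower in both sets, as was *RETREG1*. With library-size scaling *ULK2*, *ATG4C*, *ATG10* and *TEX264* were also lower in both, 6 members in all. It stood at 12.4, 15.4 and 15.2 CPM with DMSO and 9.51, 12.3 and 12.0 CPM with PTDSS1i in KYSE30, a log2 fold change of -0.35 (SE 0.11, edgeR adjusted p = 0.00826) whose call was lost without DMSO replicate 3 (-0.31, edgeR adjusted p = 0.0528) or PTDSS1i replicate 1 (-0.24, edgeR adjusted p = 0.0716). Across the U138MG-labelled libraries it stood at 43.6, 54.7 and 47.7 CPM and 34.1, 35.6 and 32.3 CPM, a log2 fold change of -0.52 (SE 0.07, edgeR adjusted p = 4.96e-06). The ubiquitin-like *GABARAPL2* rose by 0.50 and 0.33, and *GABARAP* by 0.39 and 0.10, the latter turning to -0.04 with library-size scaling. *GABARAP* went from 10.7 ± 0.420 to 14.1 ± 0.389 CPM in KYSE30 and from 136 ± 5.01 to 146 ± 3.93 CPM in the U138MG-labelled libraries (SD, n = 3). The tables use different annotations and 55.7% of its exonic bases are shared with other genes, so a difference in its level and a difference in counting cannot be told apart.

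The cargo receptors tie ubiquitinated or aggregated material to LC3 proteins, and all 6 rose in KYSE30 (median 0.73), beside 30.1% of all genes. In the U138MG-labelled libraries 2 were higher and 1 lower (median 0.02), and the 33.3% higher was near the 33.9% of all genes. The difference between the lines was called for each of the 6, with the larger log2 fold change in KYSE30 each time. Of the 18405 genes tested, 24.4% had a called difference with the larger log2 fold change there. *OPTN* (chr10:13099449-13138308), optineurin, a receptor in the clearance of bacteria and damaged mitochondria, had the largest rise of any member. It stood at 22.5, 30.3 and 24.03 CPM with DMSO and at 96.4, 98.1 and 102 CPM with PTDSS1i in KYSE30, a 3.87-fold rise with a wide gap between the groups and a log2 fold change of 1.95 (SE 0.08, edgeR adjusted p = 5.82e-12). With the U138MG label it stood at 47.5, 49.0 and 44.0 CPM and at 48.4, 48.7 and 49.4 CPM, groups that overlap, with 0.06 (edgeR adjusted p = 0.309) that became -0.09 with library-size scaling. The responses differed by -1.93 (SE 0.10, edgeR adjusted p = 1.17e-15). The *OPTN* window (chr10:13099832-13100111, plus strand) held none of the 3 motifs.
OPTN promoter: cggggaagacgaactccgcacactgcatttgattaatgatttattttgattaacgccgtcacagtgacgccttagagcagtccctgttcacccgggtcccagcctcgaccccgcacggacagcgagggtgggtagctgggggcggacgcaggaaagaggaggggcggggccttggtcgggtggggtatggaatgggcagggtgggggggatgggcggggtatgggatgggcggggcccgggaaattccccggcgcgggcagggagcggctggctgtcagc

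*TAX1BP1*, a ubiquitin-binding receptor, rose in both. It stood at 135, 137 and 141 CPM with DMSO and 250.4, 254 and 252 CPM with PTDSS1i in KYSE30, and at 139.6, 138.2 and 141 CPM and 211, 218 and 211 CPM in the U138MG-labelled libraries, with log2 fold changes of 0.87 (SE 0.05, edgeR adjusted p = 1.21e-12) and 0.61 (SE 0.03, edgeR adjusted p = 3.00e-15) and no overlap. *TOLLIP*, another ubiquitin-binding receptor, rose by 0.95 and 0.53. *CALCOCO2* (NDP52) rose by 0.58 in KYSE30 and had -0.06 (edgeR adjusted p = 0.199) in the U138MG-labelled libraries, and *NBR1*, a receptor of aggregates and peroxisomes, 0.38 and -0.03 (edgeR adjusted p = 0.532). With library-size scaling *CALCOCO2* and *NBR1* were lower in the U138MG-labelled libraries, at -0.21 (edgeR adjusted p = 0.000111) and -0.17 (edgeR adjusted p = 0.000158). *WDFY3* (ALFY), a scaffold for the clearance of aggregates, stood at 47.8, 52.0 and 52.2 CPM with DMSO and 68.8, 64.8 and 67.6 CPM with PTDSS1i in KYSE30, a log2 fold change of 0.40 (SE 0.06, edgeR adjusted p = 3.07e-06). In the U138MG-labelled libraries it stood at 55.1, 59.7 and 54.2 CPM and 49.6, 51.7 and 49.4 CPM, a small fall without overlap of -0.17 (SE 0.05, edgeR adjusted p = 0.00459), and the responses differed by -0.61 (SE 0.08, edgeR adjusted p = 5.24e-08).

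**Figure D3:**
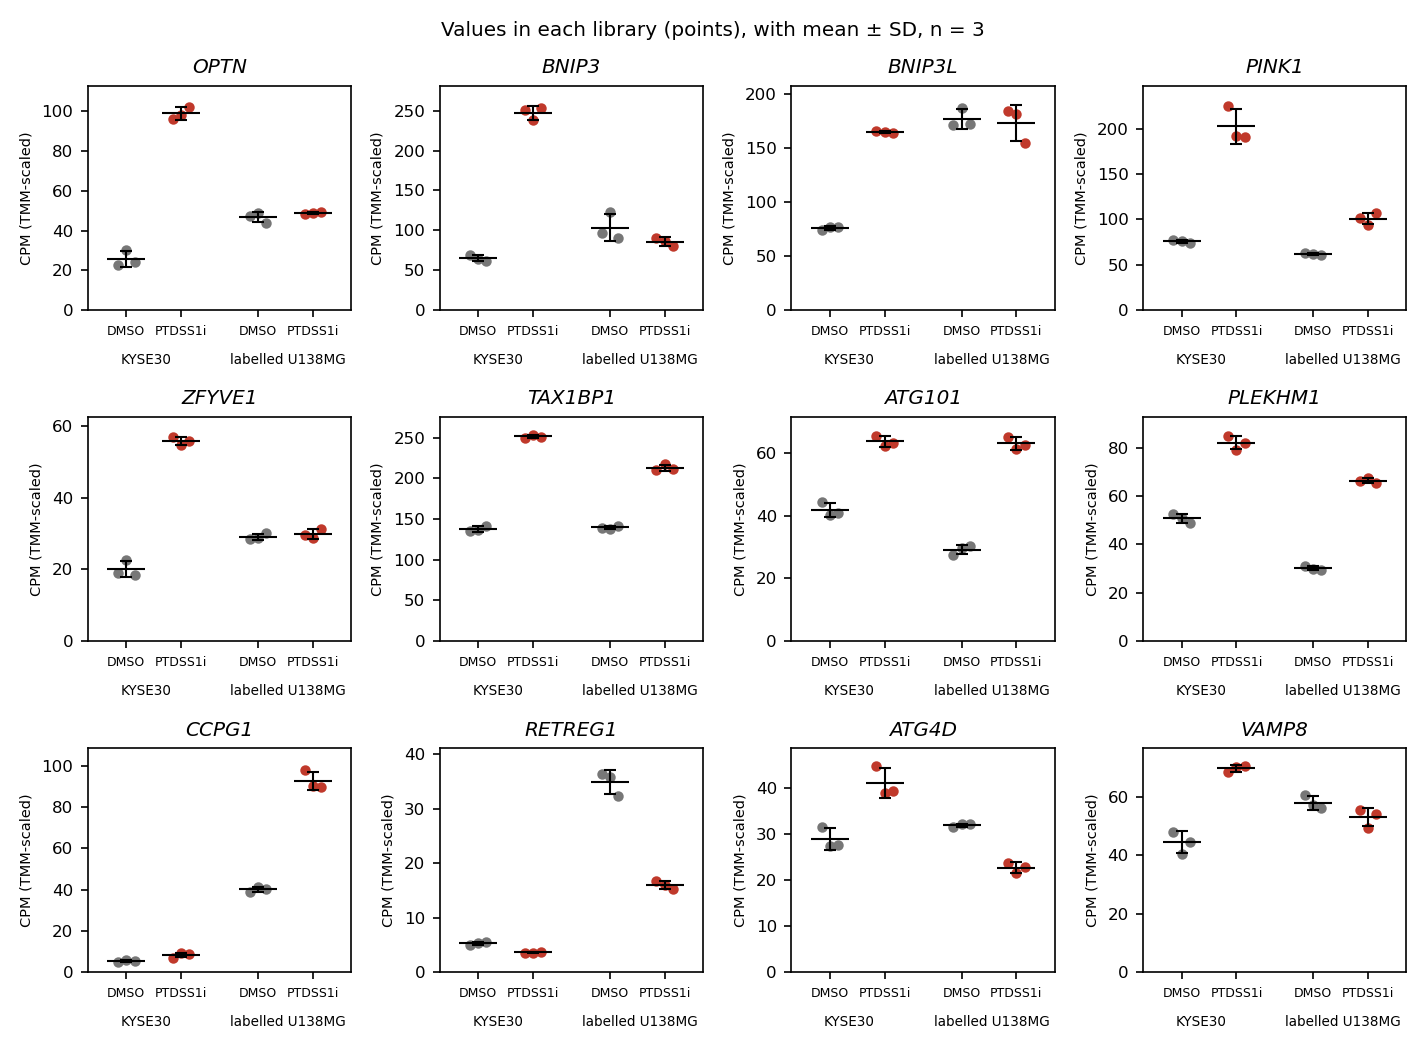
Each panel is 1 gene, the y axis is TMM-scaled CPM from 0, and points are the 3 libraries of each group (grey, DMSO; red, PTDSS1i) with mean and SD, for KYSE30 and for the U138MG-labelled libraries. *OPTN*, *BNIP3*, *BNIP3L* and *ZFYVE1* separate by treatment in KYSE30 and overlap in the U138MG-labelled libraries, while *CCPG1*, *ATG101* and *PLEKHM1* separate in both, and *ATG4D* separates in opposite directions.

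Of the genes of mitophagy, the removal of mitochondria, 3 of 4 were higher in KYSE30, each by over 1 on the log2 scale, and 1 of 4 in the U138MG-labelled libraries. The shares of all genes that were higher were 30.1% and 33.9%, so the latter count was not above that share. *BNIP3* (chr10:131966455-131982013) encodes a mitochondrial outer membrane receptor that also responds to hypoxia. It stood at 68.7, 64.4 and 61.0 CPM with DMSO and at 250.3, 238 and 253 CPM with PTDSS1i in KYSE30, a 3.82-fold rise with a log2 fold change of 1.93 (SE 0.06, edgeR adjusted p = 3.65e-17). Across the U138MG-labelled libraries it stood at 96.6, 122 and 90.4 CPM and at 90.6, 86.7 and 80.0 CPM, groups that overlap, with a log2 fold change of -0.27 (SE 0.14, edgeR adjusted p = 0.166). DMSO replicate 2 was the highest of these 6 libraries, and without it the log2 fold change was -0.13 (edgeR adjusted p = 0.0415). The responses differed by -2.24 (SE 0.14, edgeR adjusted p = 1.96e-07), the largest difference of a member. The *BNIP3* window (chr10:131981894-131982173, minus strand) has CACGTG beginning 134 bases before the start.
BNIP3 promoter: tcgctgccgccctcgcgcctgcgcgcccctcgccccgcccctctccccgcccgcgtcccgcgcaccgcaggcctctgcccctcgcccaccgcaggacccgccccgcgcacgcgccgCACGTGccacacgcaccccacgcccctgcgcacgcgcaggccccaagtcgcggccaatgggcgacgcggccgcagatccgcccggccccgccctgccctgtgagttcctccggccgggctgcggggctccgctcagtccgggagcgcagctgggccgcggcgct

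*BNIP3L* (NIX), its paralog and the receptor of mitochondrial removal in reticulocytes, stood at 74.1, 76.7 and 77.2 CPM with DMSO and at 166, 165 and 164 CPM with PTDSS1i in KYSE30, a log2 fold change of 1.12 (SE 0.05, edgeR adjusted p = 2.57e-14). With the U138MG label it stood at 171, 187 and 172 CPM and at 184, 181 and 154 CPM, which overlap, with a log2 fold change of -0.03 (edgeR adjusted p = 0.744). *PINK1*, the kinase that marks damaged mitochondria for Parkin and is no receptor itself, rose in both. It stood at 77.3, 76.3 and 73.7 CPM with DMSO and 225, 192 and 191 CPM with PTDSS1i in KYSE30 and at 63.2, 62.0 and 61.1 CPM and 101, 94.4 and 107 CPM in the U138MG-labelled libraries, log2 fold changes of 1.42 (SE 0.06, edgeR adjusted p = 2.64e-14) and 0.70 (SE 0.05, edgeR adjusted p = 8.04e-14). PTDSS1i replicate 1 was the highest in KYSE30, neither pair of groups overlaps, and the responses differed by -0.76 (SE 0.08, edgeR adjusted p = 5.09e-09). Of its exonic bases 41.7% are shared with other genes, among them the antisense *PINK1-AS*, and without strand their reads cannot be told apart. *FUNDC1*, a receptor of hypoxic mitophagy, had -0.11 (edgeR adjusted p = 0.397) and -0.18 (edgeR adjusted p = 0.0701), the latter -0.33 (edgeR adjusted p = 0.00182) with library-size scaling.

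The 3 receptors of ER-phagy, the removal of endoplasmic reticulum, moved apart, with the larger changes in the U138MG-labelled libraries. *RETREG1* (chr5:16473038-16617058) encodes FAM134B, which bends sheets of the reticulum. It stood at 36.5, 35.9 and 32.3 CPM with DMSO and at 16.7, 16.0 and 15.2 CPM with PTDSS1i in the U138MG-labelled libraries, a log2 fold change of -1.13 (SE 0.07, edgeR adjusted p = 5.98e-14) and the only fall of a member past 1 in either set. In KYSE30, where it was scarce, it stood at 4.98, 5.29 and 5.57 CPM and 3.45, 3.57 and 3.72 CPM, a log2 fold change of -0.56 (SE 0.14, edgeR adjusted p = 0.00124). The groups did not overlap in either, and the responses differed by -0.61 (SE 0.15, edgeR adjusted p = 0.000864). The *RETREG1* window (chr5:16616968-16617247, minus strand) held none of the 3 motifs.
RETREG1 promoter: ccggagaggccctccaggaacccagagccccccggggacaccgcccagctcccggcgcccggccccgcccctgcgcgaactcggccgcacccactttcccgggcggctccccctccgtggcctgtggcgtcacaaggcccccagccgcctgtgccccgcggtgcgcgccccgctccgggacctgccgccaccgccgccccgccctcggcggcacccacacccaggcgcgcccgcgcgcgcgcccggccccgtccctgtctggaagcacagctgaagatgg

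*CCPG1* (chr15:55340032-55408510), an ER-phagy receptor of the reticulum membrane, rose most of all members in the U138MG-labelled libraries. It stood there at 38.9, 41.1 and 40.2 CPM with DMSO and at 97.9, 90.2 and 89.9 CPM with PTDSS1i, a 2.31-fold rise with a log2 fold change of 1.21 (SE 0.05, edgeR adjusted p = 8.00e-19). In KYSE30 it stood at 4.59, 5.85 and 5.36 CPM and 6.95, 8.97 and 8.59 CPM, a log2 fold change of 0.63 (SE 0.13, edgeR adjusted p = 0.000262), and the responses differed by 0.54 (SE 0.13, edgeR adjusted p = 0.000636). The groups are apart in both, and 39.8% of its exonic bases are shared with other genes, the read-through gene *DNAAF4-CCPG1* among them, so that its level, like that of *GABARAP*, cannot be told apart from how the annotations assign reads. *TEX264*, a further receptor of the reticulum, had -0.07 (edgeR adjusted p = 0.332) in KYSE30, or -0.18 (edgeR adjusted p = 0.0244) with library-size scaling, and fell by 0.28 on the log2 scale in the U138MG-labelled libraries (edgeR adjusted p = 0.000331).

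Of the fusion genes, the adaptor *PLEKHM1* and the GTPase *RAB7A* rose in both sets, and none of the SNARE genes did. *PLEKHM1* (chr17:45435900-45490749), an adaptor that links LC3 proteins, *RAB7A* and the HOPS tether, stood at 52.3, 51.0 and 48.8 CPM with DMSO and 84.6, 79.2 and 82.0 CPM with PTDSS1i in KYSE30, and at 31.0, 29.9 and 29.5 CPM and 66.2, 67.4 and 65.3 CPM in the U138MG-labelled libraries. Neither pair overlaps, the log2 fold changes were 0.69 (SE 0.06, edgeR adjusted p = 5.09e-10) and 1.14 (SE 0.05, edgeR adjusted p = 1.20e-17), and the responses differed by 0.40 (SE 0.07, edgeR adjusted p = 2.61e-05). The KYSE30 table also lists the near copy *PLEKHM1P1*, with 4696 counts in all beside 8586 for *PLEKHM1*, which went from 33.0 ± 2.41 to 39.9 ± 1.497 CPM (SD, n = 3). Summed, the pair went from 83.7 ± 4.17 to 122 ± 2.399 CPM, a 1.46-fold rise, beside 1.62-fold for *PLEKHM1* alone. In the other table the copy held 5 counts beside 6594, so the KYSE30 level of *PLEKHM1* and the size of the difference between the lines are uncertain.

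*RAB7A*, the late endosome and lysosome GTPase, rose from 201 ± 8.87 to 273 ± 4.98 CPM in KYSE30 and from 278 ± 1.96 to 393 ± 7.69 CPM in the U138MG-labelled libraries (SD, n = 3), log2 fold changes of 0.44 (SE 0.05, edgeR adjusted p = 1.33e-07) and 0.50 (SE 0.03, edgeR adjusted p = 8.56e-14). The difference between them was 0.02 (SE 0.06, edgeR adjusted p = 0.848). *VAMP8*, the lysosomal SNARE, stood at 48.0, 40.5 and 44.6 CPM with DMSO and 68.4, 70.2 and 70.5 CPM with PTDSS1i in KYSE30, a log2 fold change of 0.65 (SE 0.06, edgeR adjusted p = 8.50e-09). In the U138MG-labelled libraries it stood at 60.5, 57.1 and 56.0 CPM and 55.4, 49.4 and 54.1 CPM, ranges without overlap but only 56.0 against 55.4 CPM at their edge, with -0.13 (SE 0.05, edgeR adjusted p = 0.0328). That call was lost in DESeq2 (-0.12, adjusted p = 0.102), without DMSO replicate 1 (-0.09, edgeR adjusted p = 0.170) and without PTDSS1i replicate 2 (-0.07, edgeR adjusted p = 0.305), while the responses differed by -0.82 (SE 0.08, edgeR adjusted p = 1.01e-09).

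*SNAP29*, a SNARE that joins *VAMP8*, rose by 0.23 in KYSE30 and had 0.10 (edgeR adjusted p = 0.149) in the U138MG-labelled libraries, and *STX17*, the autophagosomal SNARE, had -0.03 (edgeR adjusted p = 0.727) and -0.04 (edgeR adjusted p = 0.473), the latter -0.18 (edgeR adjusted p = 0.000872) with library-size scaling. *EPG5*, a tether, had 0.08 (edgeR adjusted p = 0.339) in KYSE30 and rose by 0.49 in the U138MG-labelled libraries, a difference of 0.36 (SE 0.09, edgeR adjusted p = 0.00145). *TECPR1*, a further tether, rose by 0.67 in KYSE30 and had 0.06 (edgeR adjusted p = 0.683) in the others, a difference of -0.65 (SE 0.14, edgeR adjusted p = 0.000165).

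Set side by side, the responses of the lines differed for most members. The interaction of line and treatment, tested over the 18405 genes kept when both tables were fitted together, was called for 36 of 54 members beside 49.9% of all genes. The larger log2 fold change was in KYSE30 for 26 of them, beside 24.4% of all genes, and in the U138MG-labelled libraries for 10. Both called higher were 22 members, beside 18.5% of the 13990 genes tested in each table, both lower were 2 beside 15.5%, and opposite were 5 beside 14.9%. The 5 were *PIK3R4*, *ATG3*, *ATG4D*, *WDFY3* and *VAMP8*, each with a called difference. With library-size scaling 18 were higher in both, 6 lower in both and 9 opposite, with *ULK1*, *PIK3C3*, *NBR1* and *CALCOCO2* added to the 5, and in DESeq2 3 were opposite, without *ATG3* and *VAMP8*. The shares of all genes beside these counts were not taken. Lower in both were 1 without DMSO replicate 3 or PTDSS1i replicate 1 of KYSE30, where *ATG16L2* lost its call, and 3 without PTDSS1i replicate 2 of the U138MG-labelled libraries, where *ATG4C* gained one. A further 13 were called higher in KYSE30 alone, a pattern whose share of all genes was not taken. Of these 13 the difference was called for *ULK1*, *PIK3C3*, *ATG14*, *WIPI2*, *ZFYVE1*, *NBR1*, *OPTN*, *CALCOCO2*, *BNIP3*, *BNIP3L* and *TECPR1* but not for *SNAP29*, at -0.17 (SE 0.08, edgeR adjusted p = 0.0811), or for *MAP1LC3A*, at or near 0 in the U138MG-labelled libraries. Not called in either were *RB1CC1*, *ATG4B*, *ATG5*, *ATG7*, *FUNDC1* and *STX17*. Where neither the call nor the difference was reached, the SE of the log2 fold change, at most 0.16 in KYSE30 and 0.15 in the U138MG-labelled libraries with medians of 0.06 and 0.05, sets what could be seen.

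**Figure D4:**
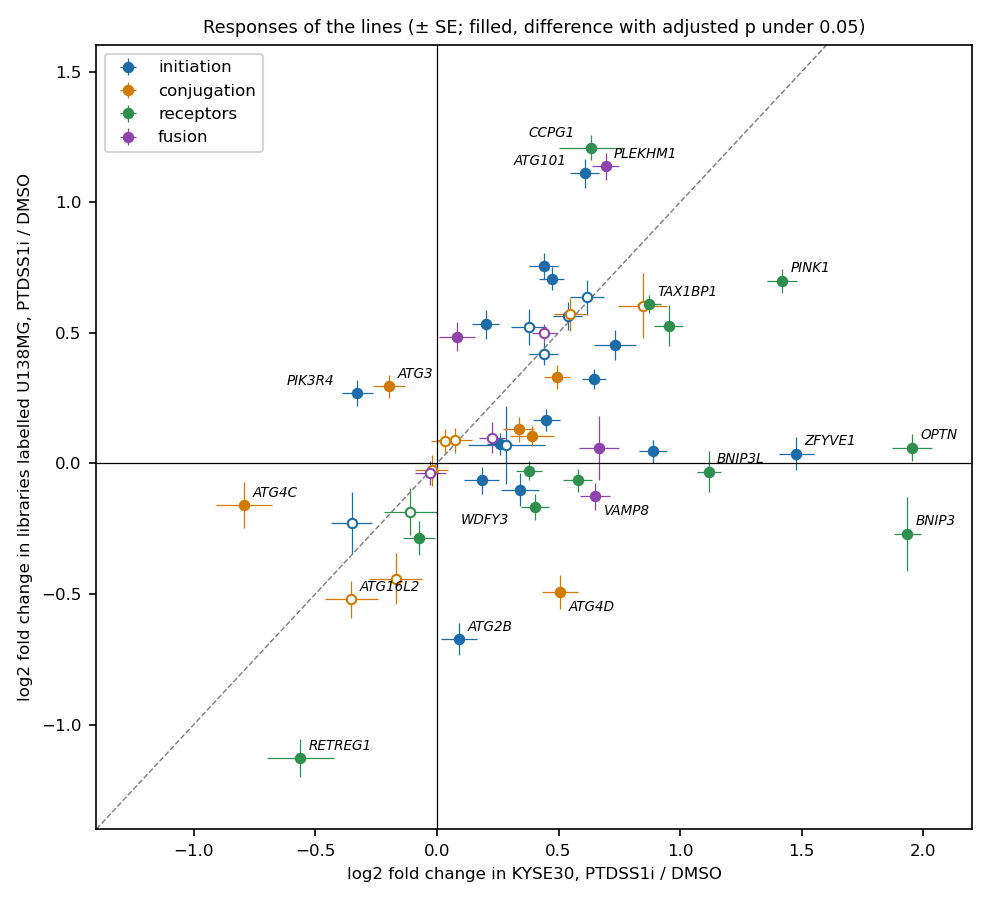
The x axis is the log2 fold change with PTDSS1i over DMSO in KYSE30 and the y axis that in the U138MG-labelled libraries, for the 53 members tested in both, with bars of 1 SE and colours by step. Filled points differ between the lines at an edgeR adjusted p under 0.05 for the interaction, and the dashed line marks equal change. *BNIP3*, *OPTN*, *ZFYVE1* and *BNIP3L* lie far to the right near 0 on the y axis, *CCPG1*, *ATG101* and *PLEKHM1* lie above the dashed line, and *RETREG1* is lowest.

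The order of levels, which can be compared between genes only per length, was taken from counts divided by exonic length and scaled to a fixed total (TPM). With DMSO in KYSE30, *RAB7A* was highest at 255 ± 3.33 TPM, followed by *VAMP8* at 154 ± 8.09 and *WDR45B* at 152 ± 6.78 (SD, n = 3), of which the latter pair lie within their spread. *CCPG1* was lowest at 2.07 ± 0.315 TPM. With PTDSS1i, *BNIP3* went from 41.9 ± 1.80 to 153 ± 3.62 TPM, from rank 16 to rank 4 of 54, and *OPTN* from 17.2 ± 3.30 to 63.7 ± 1.85 TPM, from rank 35 to rank 13. Across the U138MG-labelled libraries with DMSO, *RAB7A* was again highest at 364 ± 5.87 TPM, ahead of *GABARAP* at 213 ± 7.92 and *VAMP8* at 208 ± 6.41, which lie within their spread, and *BNIP3L* followed at 146 ± 8.63. *GABARAP* was at rank 36 in KYSE30, with 16.3 ± 0.592 TPM. The ranks of *GABARAP* and *CCPG1* cannot be told apart from how the annotations assign reads. The lengths came from GENCODE v29, while the annotation behind the counts is not given.

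Of the autophagy genes read, those with the largest changes lay outside the 54. Both lists were chosen with earlier results of these data known, so this placing may follow from how they were cut. Of 69 other genes of the pathway, listed by textbook role, 36 of 65 tested were higher and 9 lower in KYSE30 (median 0.19), and 34 of 65 higher and 16 lower in the U138MG-labelled libraries (median 0.18). These are 55.4% and 13.8% of those tested in KYSE30, beside 30.1% and 32.0% of all genes, and 52.3% and 24.6% in the U138MG-labelled libraries, beside 33.9% and 33.6%. With library-size scaling they were 30 higher and 13 lower and 28 higher and 23 lower, and the share of calls that were higher went from 80% to 69.8% and from 68% to 54.9%. The 15 other core genes among them included 8 higher and 0 lower of 13 tested in KYSE30 (median 0.87), and 10 higher and 0 lower of 12 in the U138MG-labelled libraries (median 0.92). *WIPI1*, a phosphoinositide-binding WIPI protein like *WIPI2*, rose from 0.662 ± 0.0838 to 8.21 ± 1.01 CPM in KYSE30 and from 10.2 ± 1.00 to 49.6 ± 0.739 CPM in the U138MG-labelled libraries (SD, n = 3), log2 fold changes of 3.63 (SE 0.19, edgeR adjusted p = 3.69e-13) and 2.28 (SE 0.07, edgeR adjusted p = 3.65e-21). *SQSTM1* (p62), the best known cargo receptor, went from 347 ± 28.3 to 1408 ± 72.7 CPM and from 761 ± 36.3 to 3447 ± 101 CPM, or 2.02 and 2.18 on the log2 scale. *ATG9B*, the paralog of *ATG9A*, rose by 2.61 and 2.46, so the counts for the 54 describe the machinery without these genes.

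Of 28 upstream regulators, 12 of 27 tested were higher and 7 lower in KYSE30 (median 0.11), and 15 of 28 higher and 10 lower in the U138MG-labelled libraries (median 0.20). Those lower were 25.9% and 35.7% of the regulators tested, beside 32.0% and 33.6% of all genes, and those higher 44.4% and 53.6%, beside 30.1% and 33.9%. *TP53INP2*, which helps carry LC3 out of the nucleus, rose by 4.12 (SE 0.08, edgeR adjusted p = 4.79e-20) and 2.70 (SE 0.06, edgeR adjusted p = 2.68e-23). *DEPTOR*, an inhibitor of MTOR, stood at 8.504, 8.52 and 7.40 CPM with DMSO and 18.2, 18.1 and 18.1 CPM with PTDSS1i in KYSE30 and at 5.09, 5.51 and 4.97 CPM and 1.71, 1.47 and 1.92 CPM in the U138MG-labelled libraries. It moved in opposite directions without overlap, with log2 fold changes of 1.16 (SE 0.09, edgeR adjusted p = 4.44e-10) and -1.60 (SE 0.19, edgeR adjusted p = 1.80e-08) and a difference of -2.80 (SE 0.18, edgeR adjusted p = 2.71e-14). The 14 other receptors had 8 higher and 2 lower of 13 in KYSE30 against 3 higher and 5 lower of 13 in the U138MG-labelled libraries, with medians of 0.19 and -0.01, and the 12 other tethering and fusion genes had 8 higher and 0 lower against 6 higher and 1 lower, with medians of 0.20 and 0.19. Of all genes, 30.1% were higher and 32.0% lower in KYSE30, against 33.9% and 33.6%.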

How the data were processed

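Poly-A RNA of 12 libraries was sequenced with a TruSeq kit that does not mark strand. The authors deposited raw counts of reads per gene in 1 table for each line. The submitters' processing notes name hg38, Trimmomatic, STAR and featureCounts, and the annotation is not given in the sources used here. The tables list 30984 and 78691 genes and were tested separately, so reads of overlapping genes may be assigned differently.

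Each table was filtered (filterByExpr, minimum count 10, minimum total 15), TMM-scaled and tested for PTDSS1i against DMSO with edgeR 4.0.16 in R 4.3.3 (robust quasi-likelihood, Benjamini-Hochberg, threshold 0.05). CPM use TMM-scaled totals. The difference between lines was the interaction of line and treatment. The biological coefficient of variation was 0.0549 in KYSE30 and 0.0452 in the U138MG-labelled libraries. Replicates differed by a chi-square of at least 2.29 per degree of freedom, more than counting error alone. Each was counted as 1 sample, though this spread does not show that they came from separate cultures. Limits of 3 counts cover counting error only. Exonic lengths and overlaps came from GENCODE v29 and promoters from RefSeq, the first window listed except for *WDR45*. The tests were first tried on simulated counts. DESeq2 1.42.0, other scalings and filters, a replicate block and each library left out were the alternatives.

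Members and lists were chosen with earlier results of these data known. Values per library are given for members past a log2 fold change of 1, called in opposite directions, with the largest called rise or fall of a step, or among the 5 with the largest shared change, and other pathway genes are named where called past 1 in both lines. The library values of *RB1CC1*, *MAP1LC3B* and *GABARAPL1* were chosen after they were seen.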

Additional observations from a re-analysis of the deposited data

Results flagged for a closer look

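The log2 fold change with PTDSS1i differed between the lines for 36 members by the interaction of line and treatment in edgeR, with an adjusted p under 0.05 among the genes fitted together, of which 49.9% were called. Values are the log2 fold change in the U138MG-labelled libraries minus that in KYSE30, so a value below 0 is a larger log2 fold change in KYSE30. Line, batch and annotation cannot be told apart in this difference.

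Among initiation genes the difference was -0.88 for *ULK1*, -0.32 for *BECN1*, -0.48 for *PIK3C3*, -0.29 for *ATG14*, -0.22 for *WIPI2*, -0.32 for *WDR45*, -0.36 for *WDR45B*, -1.48 for *ZFYVE1* and -0.80 for *ATG2B*. It lay above 0 for others of the step, at 0.20 for *ATG13*, 0.46 for *ATG101*, 0.56 for *PIK3R4*, 0.29 for *AMBRA1* and 0.27 for *ATG2A*. Among conjugation genes it was -1.04 for *ATG4D*, -0.25 for *ATG12*, -0.32 for *GABARAP* and -0.20 for *GABARAPL2*, and above 0 at 0.45 for *ATG3* and 0.59 for *ATG4C*. Among receptors it was -0.45 for *NBR1*, -1.93 for *OPTN*, -0.68 for *CALCOCO2*, -0.30 for *TAX1BP1*, -0.46 for *TOLLIP*, -0.61 for *WDFY3*, -2.24 for *BNIP3*, -1.19 for *BNIP3L*, -0.76 for *PINK1*, -0.61 for *RETREG1* and -0.25 for *TEX264*, with *CCPG1* alone above 0 at 0.54. Among fusion genes it was -0.82 for *VAMP8* and -0.65 for *TECPR1*, and above 0 at 0.36 for *EPG5* and 0.40 for *PLEKHM1*.

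Outside the members, the difference was -1.39 for *WIPI1*, -2.80 for *DEPTOR* and -1.46 for *TP53INP2*, where *WIPI1* and *TP53INP2* rose in both lines and *DEPTOR* rose in KYSE30 and fell in the U138MG-labelled libraries.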

How the results depend on the processing

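The count of members called higher or lower in each line, their medians, the count that differed between the lines and the counts of the other pathway genes kept their direction, and these counts stayed within 1.5 times, under the alternatives run except library-size scaling. That scaling gave a members' median of 0.334 in KYSE30 and -0.0593 in the U138MG-labelled libraries, 18 members lower in the latter, and turned the sign of 4 members in KYSE30 and 11 in the U138MG-labelled libraries, among them *ATG12* and *GABARAP*, which had been called higher, and *ULK1*, then called lower. Of the members described in full, *ATG2B* turned to -0.0140 in KYSE30 and *ZFYVE1* to -0.109 and *OPTN* to -0.0862 in the U138MG-labelled libraries. With 1 library left out, *BNIP3L* in the U138MG-labelled libraries ranged from -0.0661 to 0.0555, and its sign turned without DMSO replicate 2 or PTDSS1i replicate 3. The count lower in both lines went from 2 to 6 and that of opposite calls from 5 to 9, or to 3 in DESeq2, and the cause was not tested.

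Any pairing of the samples by replicate number was weak in KYSE30 and was not seen across all numbers in the U138MG-labelled libraries. Deviations of same-numbered libraries had correlations of 0.0754, 0.0721 and 0.0204 in KYSE30, where each library correlated best with its own number, and of 0.00881, -0.00288 and 0.0484 in the U138MG-labelled libraries, where this did not hold. With the replicate number as a block, 39 members were higher and 6 lower in KYSE30, 25 higher and 8 lower in the U138MG-labelled libraries, and 37 differed between the lines.

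Tested members had at least 55 counts in a library, and the SE beside a value, from 3 libraries a group, is its limit of precision.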
